A study of Mus musculus with 9 samples.

Results

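The entries described here are small RNAs whose identifiers carry the name SNORA (nucleolar) or SCARNA (Cajal body) with an interval in the mouse genome. They are called box H/ACA RNAs by these names, which do not show that each entry is of this class. The Ago2 table held 177 of them among 1825 small RNAs, 159 SNORA and 18 SCARNA, and the Sfpq table held 178 among 1939, 159 SNORA and 19 SCARNA. Both tables together held 182 intervals, of which 173 were in both. The samples were 9 small RNA libraries, 3 from Ago2 RNA immunoprecipitation (RNA-IP), 3 from Sfpq RNA-IP and 3 from Input RNA. The labels name RAW 264.7 cells, a mouse macrophage line, as the cell of every library, while another label field names a stem cell and the series text names P19 cells. The study itself reports RAW 264.7 as the cell used for the small RNA sequencing of both RNA-IPs. The labels give no genetic change or treatment for any group, and it was not given whether the 3 libraries of a group came from separate cultures. In the Input, 5 miRNAs listed as macrophage and myeloid markers (miR-223-3p, miR-142-3p, miR-146a-5p, miR-155-5p and miR-21a-5p) made up 5.37% of the mature miRNA signal. Of their summed signal of 331690, 1 miRNA held 265164, and the lowest had 103. The 1 arm of the pluripotency miRNAs in the table was listed at 0. An RNA-IP recovers RNA bound directly or through a complex, no RNA-IP with a control antibody was analysed here, and each RNA-IP library was made from a fixed RNA mass, so that a ratio to Input is a share and not an amount per cell.

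Box H/ACA RNAs fold into a pair of hairpins joined by a hinge with the H box (ANANNA) and closed by a tail with an ACA close to the 3′ end. Bound by dyskerin and its partners, each hairpin can present a pocket that pairs with a target RNA and places a uridine for conversion to pseudouridine. SNORA RNAs mostly guide this change in ribosomal RNA in the nucleolus. The scaRNAs of this class, which carry a Cajal body signal (the CAB box, with TGAG as a common form), mostly guide it in spliceosomal RNAs. Most mammalian members are cut from introns of host genes. Ago2 is an Argonaute, the protein family that holds miRNAs in the silencing complex. Sfpq binds RNA mainly in the nucleus, where it is a component of paraspeckles. Some H/ACA hairpins in human and mouse also serve as miRNA precursors, their arms being cut out and loaded into Argonaute.

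The intervals were 79 to 275 bases long with a median of 132.5, longer than the reads of a small RNA library, so that a value counts fragments of an entry and not necessarily the whole RNA. Of the 182 entries, 174 matched a GENCODE M21 transcript of the same coordinates (GRCm38). Read 5′ to 3′ on the strand of the RNA, 155 of the 174 (89.1%) had ACA within their last 8 bases and 161 (92.5%) had ANANNA starting between 35 and 65% of their length. In the first 132 bases of each of 32851 RefSeq promoters, read on 1 strand, those shares were 9.13% and 43.2%, and both motifs occurred in 4.50% of these windows against 146 of the 174 entries. Among the SCARNA entries named below, SCARNA18 and the SCARNA6 copy from 87776938 had neither motif. The other SCARNA6 copy lacked the ACA, and SCARNA11 and SCARNA13 lacked the ANANNA. The letters TGAG occurred in 15 of 19 SCARNA entries (78.9%), in 69 of 155 SNORA entries (44.5%) and in 47.0% of the promoter windows. A host gene surrounded 140 entries, protein-coding for 124 of them. It was on the same strand where the strand of the entry was known, and entries without a matching transcript were given any surrounding gene. Of the 140, 94 entries lay in an intron of every annotated transcript, 38 in an exon of some transcripts and 8 across an exon edge.

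The entries that reached the highest values in Ago2 RNA-IP, SCARNA3 and SNORA36, contained annotated miRNA hairpins on their own strand, and their sequences are shown because their values nearly equalled those of the miRNAs inside them. SNORA36 lies on chromosome 1 from 185242907 to 185243038 (GRCm38, plus strand) in an intron of Rab3gap2, a subunit of the Rab3 GTPase-activating complex. SCARNA3 lies on chromosome 12 from 80391613 to 80391751 (minus strand) in an intron of Dcaf5, a substrate receptor of a ubiquitin ligase. Capitals mark the bases of the mature miRNAs, which are miR-664-5p and miR-664-3p in the first sequence and miR-1843a-5p and miR-1843a-3p in the second.
SNORA36: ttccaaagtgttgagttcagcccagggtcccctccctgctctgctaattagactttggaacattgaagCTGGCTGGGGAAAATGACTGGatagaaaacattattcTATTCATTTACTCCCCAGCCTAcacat
SCARNA3: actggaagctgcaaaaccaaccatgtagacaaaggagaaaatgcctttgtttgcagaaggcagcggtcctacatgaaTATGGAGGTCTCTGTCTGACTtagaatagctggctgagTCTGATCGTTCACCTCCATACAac

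The mature sequences, from RefSeq for GRCm38.p6, follow with the seed (bases 2 to 8) in capitals, and no 2 of them share a seed. They occupied bases 69 to 89 and 106 to 127 of the 132 bases of SNORA36, and bases 78 to 98 and 116 to 137 of the 139 bases of SCARNA3.
miR-664-5p: cUGGCUGGggaaaaugacugg
miR-664-3p: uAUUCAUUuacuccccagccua
miR-1843a-5p: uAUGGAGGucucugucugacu
miR-1843a-3p: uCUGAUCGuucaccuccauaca

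The tables list these miRNAs as entries of their own, so the value of each H/ACA entry could be set against the sum of its miRNA arms. SNORA36 had a normalised signal of 1974 in Ago2 RNA-IP and 715 in the Input of the same table, and its arms summed to 1975 and 717. In the Sfpq table SNORA36 had 272 in the RNA-IP and 629 in the Input, against 275 and 630.4 for the arms. The arms thus came to between 100.03% and 101.2% of the SNORA36 value in all 4 columns, with miR-664-5p alone at 94.8 to 98.2%. SCARNA3 had 2495 in Ago2 RNA-IP and 720.4 in its Input, where the arms of miR-1843a summed to 2494 and 647, which is 99.97% and 89.8% of the entry. In the Sfpq table SCARNA3 had 1920.01 in the RNA-IP and 634 in the Input, and the arms came to 99.5% and 89.9% of these. The arms thus left a part of the SCARNA3 signal unmatched in the Input and almost none in either RNA-IP.

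**Figure D1:**
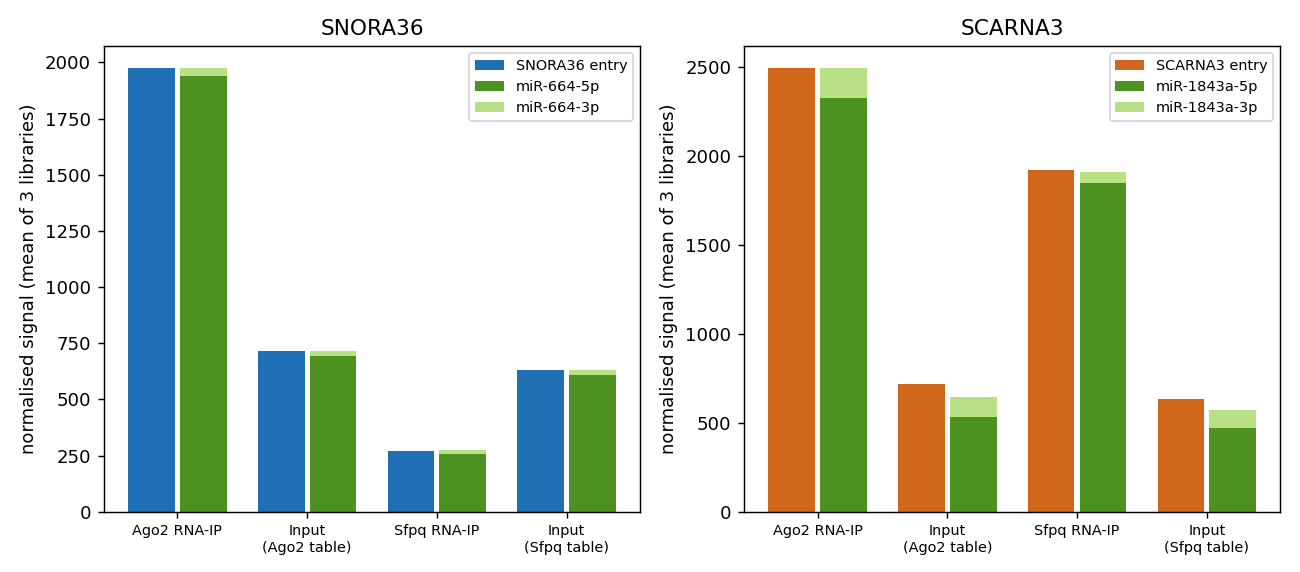
Normalised signal (vertical axis, the authors' mean of 3 libraries) of SNORA36 and SCARNA3 beside the stacked signal of the miRNA arms inside them, for each RNA-IP and the Input of its table. The stacks reach the height of the SNORA36 entry in all 4 columns and 89.8 to 99.97% of the SCARNA3 entry.

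The reads of the Input could be followed to single libraries for these entries, because each deposited mean is a sum of whole reads with a fixed weight per library and the Input was weighted differently in the 2 tables. The libraries so obtained are called Input A, B and C in the order of their weights, and they could not be matched to the numbered samples. SNORA36 had 757, 552 and 519 reads in Input A, B and C, where miR-664-5p had 744, 518 and 513 and miR-664-3p 13, 34 and 9. The sums of the arms differed from the entry by 0, 0 and 3 reads. The entry and its arms therefore had nearly the same reads in each Input library and are not separate measurements. The ratios of SNORA36 were close to those of its main arm, with a log2 ratio to Input of 1.47 with Ago2 and -1.21 with Sfpq, where miR-664-5p had 1.48 and -1.24. SCARNA3 had 1.79 and 1.60, below its main arm miR-1843a-5p at 2.12 and 1.97 and above miR-1843a-3p at 0.58 and -0.66. SNORA36 was thus above Input with Ago2 and below it with Sfpq, while SCARNA3 was above it with both.

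Of all 182 entries, 8 overlapped a RefSeq miRNA hairpin on the same strand, and 3 of these (SNORA36, SCARNA3 and SCARNA16) were among the entries with enough signal for a ratio. SCARNA16, in an exon of the non-coding host gene Snhg20, overlaps the hairpin of miR-6516, whose arms were not analysed here. SCARNA16 had the highest Input of all H/ACA entries, 770.5 in the Ago2 table, and only 133 in Ago2 RNA-IP (log2 ratio -2.53, 95% counting interval -2.69 to -2.37) and 155 in Sfpq RNA-IP (-2.12). SCARNA13, chosen after its values were seen, holds miR-3069 and had 14.3 in Ago2 RNA-IP against 17.5 in the Input, the miR-3069 arms making up 88.9% and 65.1% of these values. The GENCODE annotation lists miRNA genes without a miRNA name over a further 7 entries, among them both copies of SNORA81 and SNORA74, for which no mature miRNA was analysed here.

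A ratio was read only for entries whose mean of RNA-IP and Input was at least 20, which corresponds to 38.7 to 97.4 reads summed over 3 libraries, depending on the library and column. Of the 177 entries of the Ago2 table, 49 reached this level, 40 SNORA and 9 SCARNA, and in the Sfpq table, of 178 entries, 48, 39 SNORA and 9 SCARNA. An entry that was nearly missing from an RNA-IP needed an Input of about 40 to be counted. The columns hold 1 mean over 3 libraries for each group, so a test between libraries was run only for the entries whose RNA-IP and Input values could both be split by library, and a ratio is given with an interval for counting error only, computed from the fewest reads that its values allow. The Input was scaled separately in each table and is shared by both comparisons. Its H/ACA signal was 0.129% of the Ago2 table's Input and 0.0752% of Ago2 RNA-IP, and 0.127% and 0.0583% in the Sfpq table. Of the H/ACA signal of Ago2 RNA-IP, 7380 in all, 4628 came from entries that overlap a miRNA hairpin, against 2252 of 9428 in the Input.

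The median entry with a ratio was lower in the RNA-IPs than in the Input for both kinds of H/ACA RNA. Signal summed over all entries of a kind was nearly equal for SCARNA. The SCARNA sums were 2739 for Ago2 RNA-IP and 2716 for its Input, and 2344 for Sfpq RNA-IP and 2376 for its Input. Of these sums SCARNA3 held 2495, 720.4, 1920.01 and 634. The SNORA sums were lower in both RNA-IPs, at 4641 with Ago2 (Input 6712) and 3461 with Sfpq (Input 5832). With Ago2 the median log2 ratio was -2.09 for SNORA (95% interval of the median -3.43 to -1.26, n = 40) and -2.61 for SCARNA (-5.43 to -1.03, n = 9). All other small RNAs had a median of -0.63 (-1.04 to -0.31, n = 721), SNORD entries, the box C/D guides of ribose methylation, 0.50 and the mature miRNAs 0.49. With Sfpq the SNORA median was -0.94 (-1.78 to -0.24, n = 39) and the SCARNA median -1.83 (-3.17 to -0.00, n = 9), against -0.51 for all other small RNAs, 0.65 for SNORD and 0.44 for mature miRNAs. The interval of the SNORA median with Sfpq overlapped that of all other small RNAs (-0.84 to -0.27), while the one with Ago2 did not overlap its counterpart. The intervals of the SCARNA medians overlapped those of all other small RNAs in both tables. These intervals describe the spread among entries and do not cover differences between libraries. Without the entries that overlap a miRNA hairpin, the medians with Ago2 were -2.23 for SNORA (n = 39) and -3.72 for SCARNA (n = 7). With Sfpq they were -0.82 (n = 38) and -1.83 (n = 7).

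**Figure D2:**
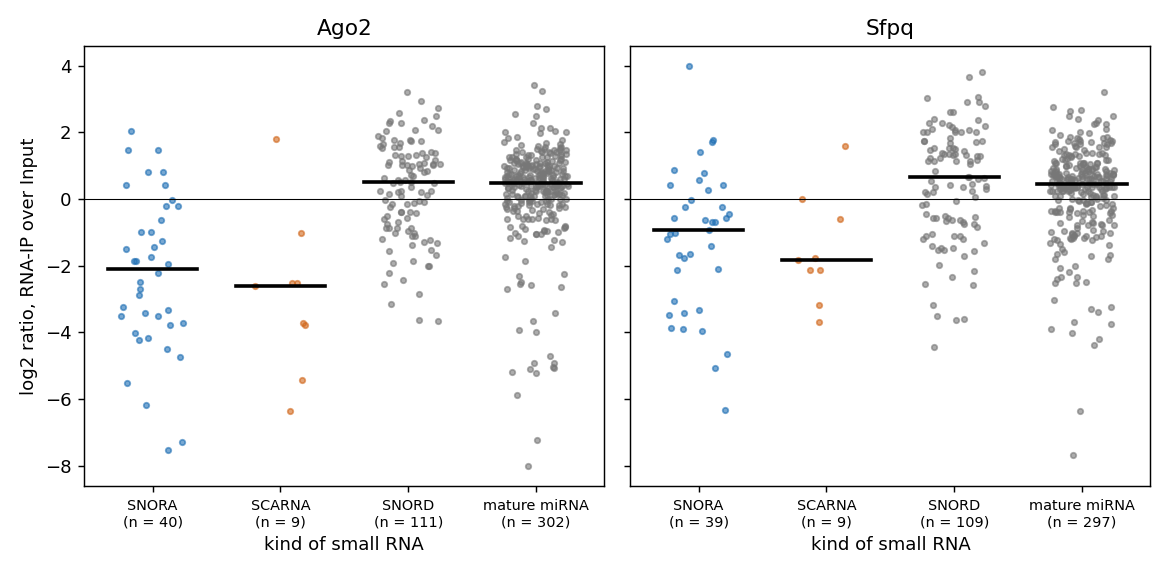
Log2 ratio of RNA-IP to Input (vertical axis) for each entry at a mean of at least 20 and above 0 in both groups, by kind of small RNA, with the median as a bar. SNORA and SCARNA medians lie at -2.09 and -2.61 with Ago2 and at -0.94 and -1.83 with Sfpq, and SNORD and miRNA medians lie above 0.

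By counts, 27 of 40 SNORA entries (67.5%) were at least 2-fold below Input with Ago2, where 49.3% of all small RNAs at this level were, and 3 (7.5%) were at least 2-fold above, where 16.6% of all were. With Sfpq 19 of 39 SNORA entries (48.7%) were at least 2-fold below, close to the 45.6% of all small RNAs, and 4 were at least 2-fold above, where 19% of all were. Among SCARNA entries 8 of 9 were at least 2-fold below Input with Ago2 and 6 of 9 with Sfpq. The only SCARNA above Input was SCARNA3, the entry that holds miR-1843a. The 3 SNORA entries at least 2-fold above with Ago2 were SNORA29, SNORA21 and SNORA36, and the 4 with Sfpq were SNORA29, SNORA72, SNORA21 and the SNORA7 copy on chromosome 1.

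**Figure D3:**
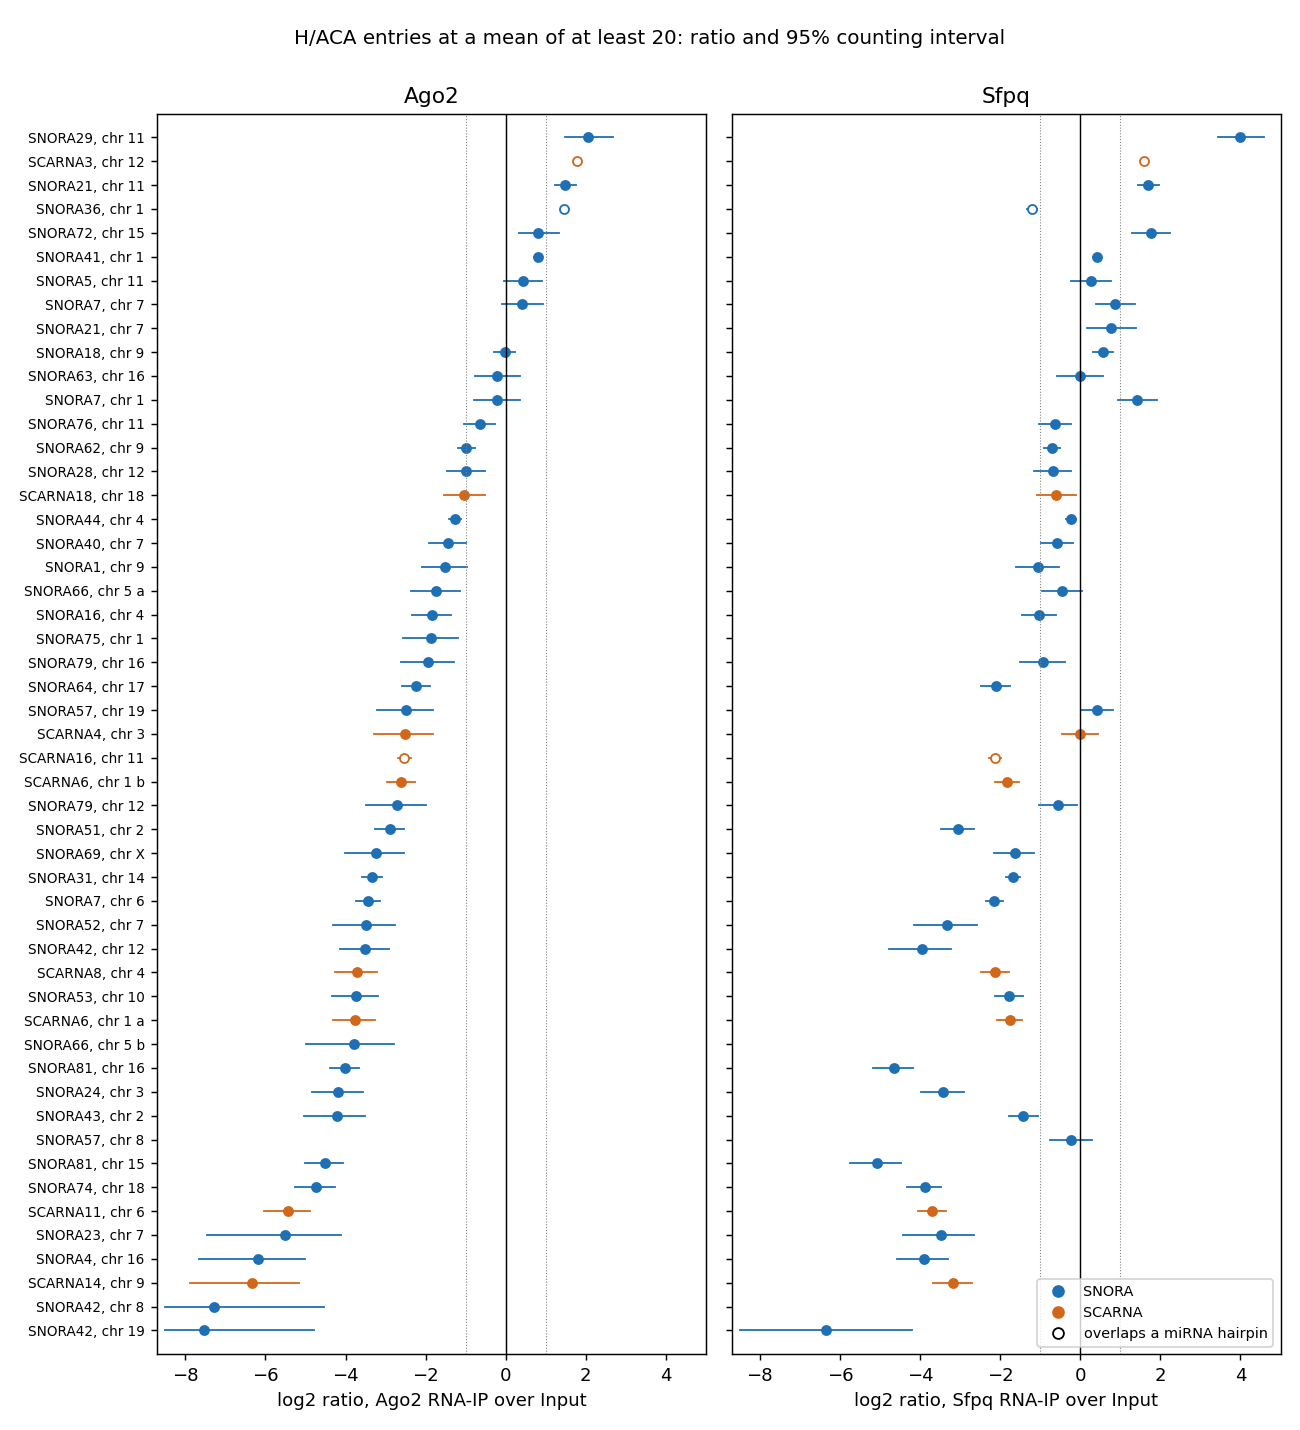
Log2 ratio of Ago2 (left) and Sfpq (right) RNA-IP to Input for every entry at a mean of at least 20 in that table, ordered by the Ago2 ratio, with 95% counting intervals (cut at the axis edge) and dotted lines at 2-fold. Open points overlap a miRNA hairpin, and most points lie left of 0.

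The Input libraries were not alike for these RNAs. In Input A the SNORA and SCARNA entries with an Input of 20 to 1200 had a median signal of 91.8, against 41.6 in Input B and 35.6 in Input C (n = 60 entries solved), and Input A was the highest of the 3 for 52 of these 60. The median entry was 2.51-fold higher in Input A than in the mean of B and C. SNORD entries had the same pattern at 5.31-fold (highest in Input A for 100 of 101), whereas mature miRNAs were at 0.736-fold and tRNA entries at 0.815-fold. Among the 49 H/ACA entries with a ratio in the Ago2 table, 5 had closely matching Input libraries, namely SCARNA3, SNORA36, SNORA41, SCARNA11 and SNORA43, and 38 had a spread of over 2-fold. Without Input A the ratio moved by more than 1.5-fold for 24 of 49 entries with Ago2 and 20 of 48 with Sfpq. The spread is therefore beside most of the ratios below, and its cause was not tested.

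With the Input taken from libraries B and C alone, the SNORA median with Ago2 was -1.04 in place of -2.09, and with Sfpq -0.54 in place of -0.94. The intervals of these medians were -2.84 to -0.44 (n = 30) and -1.47 to 0.27 (n = 34), and both overlapped those of all other small RNAs with solved Input reads, -0.54 to 0.05 with Ago2 and -0.55 to 0.04 with Sfpq. The other small RNAs had medians of -0.27 with Ago2 and -0.20 with Sfpq without Input A. Among the entries kept, the Ago2 intervals of SNORA and of the other small RNAs were thus no longer apart. No median without Input A was taken over all 40 SNORA entries. A mean of at least 20 was required again with this Input, which left 30 of the 40 SNORA entries with Ago2. The entries so lost had Ago2 ratios without Input A from -6.59 (SNORA42 on chromosome 19) to 0.46 (SNORA63). Most of them were at least 2-fold below the mean of Input B and C. Among these were SNORA42 on chromosome 8 (-6.01), SNORA23 (-4.53) and both SNORA66 copies (-3.54 and -1.04). SNORA79 on chromosome 12 (-2.21) and SNORA57 on chromosome 19 (-1.89) were as well, while SNORA75 (-0.12) and SNORA63 were not. The change in the medians and counts therefore mixes this loss with the change in the ratios. The Ago2 count of SNORA entries at least 2-fold below Input was then 16 of 30 (53.3%), where the share of all small RNAs with solved Input reads was 43.4%, against 48% with all 3 Input libraries. With Sfpq it was 14 of 34 (41.2%), where the share of all was 42.3%, against 46.2% with all 3. Without Input B or without Input C the SNORA medians with Ago2 were -2.48 and -2.50. The SCARNA medians without Input A were -2.41 with Ago2 (-5.43 to -0.17, n = 9) and -1.22 with Sfpq (-2.93 to 0.18, n = 9). Set against the single Input libraries, the mean of Ago2 RNA-IP was below all 3 of them for 32 of 49 H/ACA entries (46% of all small RNAs with solved Input reads were), above all 3 for 5 (25% of all) and within their range for 12. The mean of Sfpq RNA-IP was below all 3 for 25 of 48 (44.7% of all), above all 3 for 8 (28.5% of all) and within the range for 15.

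**Figure D4:**
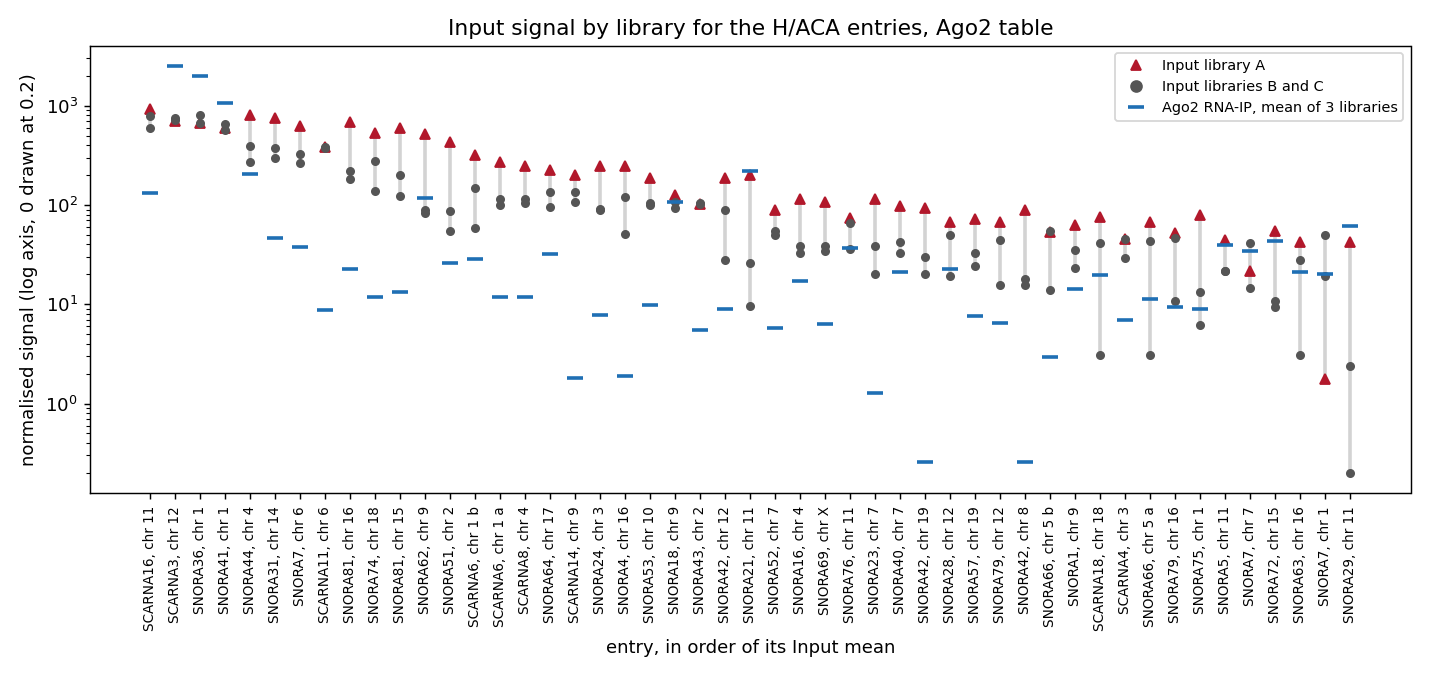
Normalised signal (log axis) of the 49 H/ACA entries with a ratio in the Ago2 table, in the order of their Input mean, with Input A as triangles, Input B and C as circles and Ago2 RNA-IP mean as a dash. The triangle is the highest Input point for most entries, and the dash lies below all 3 Input points for 32 of them.

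Of the SNORA entries without a miRNA hairpin, 2 of 39 with Ago2 and 4 of 38 with Sfpq were at least 2-fold above Input. For all small RNAs these shares were 16.6% and 19%. The counting interval lay above Input for 4 of the 39 and 9 of the 38, against 281 of 781 and 292 of 777 of all small RNAs. The SNORA entries above Input differed in how well their Input was measured. SNORA41 in an intron of Eef1b2, a translation elongation factor subunit, was the most abundant of them and the best measured. It had 589, 569 and 659 in Input A, B and C (mean 606), 1062 in Ago2 RNA-IP (log2 ratio 0.81, 95% counting interval 0.71 to 0.91) and 712 in Sfpq RNA-IP against 533 (0.42, 0.31 to 0.52). The Ago2 value lay above each Input library. The Sfpq ratio of SNORA41 was below 0 when each group was divided by its total signal (-0.21), so its side of Input depends on the scaling. SNORA29 in an intron of G3bp1, a stress granule protein, had the highest ratio in both tables, with 61.2 in Ago2 RNA-IP against 14.8 (2.05, 1.48 to 2.67) and 199 in Sfpq RNA-IP against 12.5 (3.99, 3.44 to 4.60). Its Input reads were 47 in A, 2 in B and 0 in C, so that 94.6% of its Input value came from 1 library, and without Input A the ratios were 5.66 with Ago2 and 7.48 with Sfpq.

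SNORA29 and SNORA21 are shown as the entries with the highest Ago2 ratios among those in which no miRNA is annotated, and SNORA41 as the most abundant such entry above Input. Capitals mark every ANANNA in the middle of the RNA and the ACA within the last 8 bases, which SNORA29 lacked in the annotated interval. They lie on chromosome 1 from 63179004 to 63179135 (plus strand), chromosome 11 from 55482694 to 55482833 (plus) and chromosome 11 from 97781639 to 97781775 (minus).
SNORA41: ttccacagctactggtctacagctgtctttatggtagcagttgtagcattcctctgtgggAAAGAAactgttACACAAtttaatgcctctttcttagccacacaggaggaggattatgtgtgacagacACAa
SNORA29: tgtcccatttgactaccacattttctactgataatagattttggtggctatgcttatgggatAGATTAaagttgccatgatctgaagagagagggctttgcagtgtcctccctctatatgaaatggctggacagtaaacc
SNORA21: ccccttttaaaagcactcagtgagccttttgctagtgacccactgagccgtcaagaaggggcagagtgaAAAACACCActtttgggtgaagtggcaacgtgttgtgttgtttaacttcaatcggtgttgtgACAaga

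SNORA21 in an intron of Rpl23, a protein of the large ribosomal subunit, had 219 in Ago2 RNA-IP against an Input of 78.3 (1.48, 1.23 to 1.75) and 216 in Sfpq RNA-IP against 66.5 (1.70, 1.44 to 1.97). Its Input was 199, 9.65 and 26.3 in A, B and C, so the Ago2 value was just above Input A and far above the others. SNORA72 in an exon of some transcripts of Rpl30, also of the large subunit, had 43.7 against 24.8 with Ago2 (0.81, 0.33 to 1.32) and 72.1 against 21.3 with Sfpq (1.76, 1.30 to 2.24), with Input libraries at 54.4, 10.9 and 9.30. Without Input A the ratios were 3.60 with Ago2 and 3.76 with Sfpq for SNORA21, and 2.12 and 2.99 for SNORA72. SNORA5 in an intron of Tbrg4, a mitochondrial RNA-binding protein, had 39.3 against 29.3 with Ago2 and 30.6 against 25.5 with Sfpq, and both counting intervals held 0. SNORA18 in Taf1d, a subunit of the selectivity factor of RNA polymerase I, was level with Input with Ago2, 107 against 109, and had 142 against 95.6 with Sfpq (0.57, 0.33 to 0.82), a ratio that went to -0.06 when each group was divided by its total signal.

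Among the lowest entries were several that the RNA-IPs hardly contained at all. SCARNA14 in an intron of Tipin, a replication fork factor, had 199, 106 and 135 in Input A, B and C, from 398 reads in all, and 7 reads in the 3 Ago2 RNA-IP libraries, with values of 0, 2.46 and 2.94. Each Ago2 RNA-IP library was thus below each Input library, and the log2 ratio was -6.35 (-7.88 to -5.16). In Sfpq RNA-IP it had 14.2 against 128 (-3.17, -3.68 to -2.70). SCARNA11 in an intron of Chd4, a chromatin remodeller, had an even Input, 383, 376 and 386, and Ago2 RNA-IP libraries of 3.91, 9.85 and 12.7 (log2 ratio -5.43, -6.05 to -4.88). With Sfpq it had 26.0 against 336 (-3.69, -4.05 to -3.35). SNORA43, chosen after its values were seen, was as even in the Input at 103, 103 and 104, had 3.92, 4.93 and 7.81 in Ago2 RNA-IP libraries (-4.22) and 34.0 against 90.9 with Sfpq (-1.42). For these entries the depletion did not rest on Input A, since SCARNA11 stayed at -5.43 and SNORA43 at -4.22 without it.

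The sequences of SCARNA14 and SCARNA11 are shown as the scaRNAs lowest in Ago2 RNA-IP, with capitals as for SNORA41. They lie on chromosome 9 from 64295931 to 64296065 and on chromosome 6 from 125121724 to 125121859, both on the plus strand, and in SCARNA11 no ANANNA fell in the middle window.
SCARNA14: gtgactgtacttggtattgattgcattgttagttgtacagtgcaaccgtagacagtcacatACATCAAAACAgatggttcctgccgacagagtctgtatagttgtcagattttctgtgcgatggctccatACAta
SCARNA11: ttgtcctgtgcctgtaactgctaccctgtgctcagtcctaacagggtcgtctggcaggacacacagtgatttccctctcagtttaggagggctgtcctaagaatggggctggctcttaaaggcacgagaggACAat

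SNORA23 in an intron of Ipo7, a nuclear import receptor, had Ago2 RNA-IP libraries of 0, 1.85 and 1.96, from 5 reads, against Input libraries of 116, 38.6 and 20.1 (-5.52, -7.46 to -4.11), and 4.51 against 50.3 with Sfpq (-3.48). SNORA74, within Gm28285 on chromosome 18, had 11.8 against 316 with Ago2 (-4.74, -5.27 to -4.26) and 18.5 against 273 with Sfpq (-3.89). Of the 18 entries in the Ago2 table whose RNA-IP value was low enough, under 10, to be split by library, 17 had each RNA-IP library below each Input library, and so had 95.6% of all small RNAs chosen in this way. In the Sfpq table it was 6 of 6, against 93.7% of all. Entries chosen for a low RNA-IP and a mean of at least 20 had to differ in this direction. An exact two-sided permutation test of 3 RNA-IP against 3 Input libraries, run for each of these entries, gave p = 0.1 for 17 of 18 with Ago2 and 6 of 6 with Sfpq, which is the smallest p that 3 against 3 can give and cannot reach 0.05. The exception, SNORA75, is named after its values were seen and had p = 0.6 in the same exact test. Reads were present in all 3 RNA-IP libraries for 14 of the 18 entries with Ago2 and 3 of the 6 with Sfpq, and in 1 library alone for 2 and 1 of them. SNORA4 was uneven with Sfpq, at 0, 3.51 and 20.7.

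The remaining entries of high Input were below it as well. SNORA31 in an intron of Tpt1, the gene of translationally controlled tumour protein, had 752, 372 and 299 in Input A, B and C and 47.0 in Ago2 RNA-IP (-3.33, -3.60 to -3.08). Its Sfpq RNA-IP was 128 against 413 (-1.69, -1.86 to -1.51). SNORA44, in an exon of some transcripts of the non-coding host gene Snhg12, was nearer to Input, with 204 against 491 with Ago2 (-1.26, -1.41 to -1.12) and 363 against 427 with Sfpq (-0.24, -0.36 to -0.11). Its Input was 807, 397 and 268, and without Input A the Sfpq ratio turned to 0.27. SNORA62 in Rpsa, the gene of a small ribosomal subunit protein, was chosen after its values were seen as an entry that Input A moved across 0 in both tables although its counting intervals did not hold 0. Its Input libraries were 518, 89.3 and 82.1, its Ago2 RNA-IP was 117, and its ratio was -0.98 with Input A and 0.44 without it, as it was -0.71 and 0.65 with Sfpq.

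The other SCARNA entries lay between these extremes. SCARNA8, in an intron of Haus6 of the augmin complex, had 11.8 against 155 with Ago2 (-3.72, -4.26 to -3.22) and 30.8 against 135 with Sfpq (-2.13, -2.49 to -1.79). SCARNA4 on chromosome 3, in an intron of Khdc4, had Ago2 RNA-IP libraries between 6.25 and 7.84 against Input libraries between 28.96 and 45.5 (-2.52, -3.28 to -1.81), and 34.7 against 34.8 with Sfpq (-0.00, -0.44 to 0.44). It was therefore below each Input library with Ago2 and within their range with Sfpq. SCARNA18 on chromosome 18, the shortest entry at 79 bases, had 19.6 against 40.0 with Ago2 and 23.0 against 34.8 with Sfpq (-1.03 and -0.60). Its Input was 75.8, 41.0 and 3.10, and without Input A the ratios were -0.17 and 0.18. Of the 9 SCARNA entries of the Ago2 table under the level minimum, 2 were listed at 0 in the RNA-IP.

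Copies of one name were common, and they did not always behave alike. The Ago2 table held 81 names, 40 of them with 2 or more copies that made up 136 of the 177 entries. For 23 of these entries another copy of the name had the same value in both columns, among them copies of SNORA17, SNORA25 and SNORA65, and how reads that match several copies were counted is not given in the sources used here, so a split of signal between close copies is uncertain. SNORA42 had 9 copies in the Ago2 table, of which 3 reached the level minimum. The copy in an intron of Odc1 on chromosome 12, the first enzyme of polyamine synthesis, had Ago2 RNA-IP libraries of 8.59, 8.82 and 9.24, from 35 reads, against 186, 88.1 and 27.9 in the Input (-3.50, -4.14 to -2.92). The copies on chromosome 19, in an intron of Cep55, and on chromosome 8 had 1 read each in the 3 Ago2 RNA-IP libraries, against 143 and 124 reads in the Input, with log2 ratios of -7.53 (-14.0 to -4.78) and -7.29 (-13.8 to -4.53). These 2 copies had the same value with Ago2 (0.260) and with Sfpq (0.511). Whether the same reads were counted for both was not tested, so their ratios may not be separate observations. The intervals of these copies did not overlap that of the copy in Odc1.

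The 3 SNORA42 copies are shown to let their differences be seen, with capitals as above. The chromosome 12 copy (17546146 to 17546281) differs from the chromosome 8 copy (82409091 to 82409226) by 11 edits and from the shorter chromosome 19 copy (38071929 to 38072053) by 18, all on the plus strand, and the 3 have the same ANANNA.
SNORA42, chromosome 12: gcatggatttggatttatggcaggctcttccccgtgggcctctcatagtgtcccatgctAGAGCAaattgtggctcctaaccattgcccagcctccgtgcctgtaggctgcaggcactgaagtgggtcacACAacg
SNORA42, chromosome 19: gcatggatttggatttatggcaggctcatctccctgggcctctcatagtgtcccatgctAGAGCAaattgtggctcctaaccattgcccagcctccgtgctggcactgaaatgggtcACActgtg
SNORA42, chromosome 8: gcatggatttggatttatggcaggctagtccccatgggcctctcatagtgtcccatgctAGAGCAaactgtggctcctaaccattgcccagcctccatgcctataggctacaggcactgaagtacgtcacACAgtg

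With Sfpq the SNORA42 copy in Odc1 had 5.63 against 87.6 (-3.96, -4.78 to -3.23) and the chromosome 19 copy 0.511 against 41.5 (-6.34, -10.15 to -4.21), from 2 reads, and these intervals overlapped. The SNORA7 copies also lay far apart. Its copy in Rpl32, a large subunit protein gene on chromosome 6, held 89.2% of the name's Input in the Ago2 table and had 37.6 against 407 with Ago2 (-3.43, -3.73 to -3.15) and 79.8 against 353 with Sfpq (-2.15, -2.36 to -1.93). The copies on chromosome 1 and on chromosome 7 had 20.3 against 23.6 and 34.5 against 25.9 with Ago2 (-0.22 and 0.41, both intervals holding 0). The chromosome 7 copy lies within an intron of Mettl9, but its strand was not known. With Sfpq the chromosome 1 and chromosome 7 copies had 55.5 against 20.9 (1.41, 0.93 to 1.91) and 41.5 against 22.7 (0.87, 0.39 to 1.38). The abundant copy was thus below Input and the 2 rare ones at or above it. The Input of the chromosome 1 copy was 1.78, 19.3 and 49.6, lowest in Input A.

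SNORA81 had an abundant copy in Eif4a2 on chromosome 16 and a second on chromosome 15 with no host gene. Their 178 bases differ at 2 positions, counted from the 5′ end of the chromosome 16 copy, T29C and G122A, so a fragment that spans neither position matches both, and the chromosome 16 copy (23110756 to 23110933, plus strand) is shown with these positions in capitals.
SNORA81: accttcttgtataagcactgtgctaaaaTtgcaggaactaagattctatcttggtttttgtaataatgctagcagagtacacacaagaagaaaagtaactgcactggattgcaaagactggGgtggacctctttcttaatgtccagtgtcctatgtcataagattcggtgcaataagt

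The chromosome 16 copy of SNORA81 had 22.6 against 365 with Ago2 (-4.01, -4.39 to -3.66) and 12.6 against 315 with Sfpq (-4.65, -5.17 to -4.17), and the chromosome 15 copy 13.3 against 305 (-4.51, -5.01 to -4.05) and 7.78 against 262 (-5.07, -5.74 to -4.47). Input A, B and C were 693, 183 and 219 for the first copy and 590, 122 and 201 for the second, and without Input A the Ago2 ratios were -3.15 and -3.60 and the Sfpq ratios -3.84 and -4.21. SNORA66 has a pair of copies in introns of Rpl5, a large subunit protein gene, that differ by 7 edits. The copy from 107905177 on chromosome 5 had 11.3 against 37.8 with Ago2 (-1.74, -2.37 to -1.14) and the copy from 107907345 had 2.93 against 40.6 (-3.79, -4.98 to -2.79), and their intervals did not overlap. With Sfpq the former had 24.1 against 33.0 and the latter, under the level minimum, 1.78 against 35.8. Their Input was 66.9, 43.4 and 3.10 for the former and 53.5, 54.3 and 13.9 for the latter, and without Input A the Ago2 ratios were -1.04 and -3.54 and the Sfpq ratio of the former was 0.17. The SCARNA6 copies, both in introns of the autophagy gene Atg16l1, had 11.8 against 162 (-3.77) and 28.7 against 175 (-2.61) with Ago2 and nearly equal ratios with Sfpq (-1.77 and -1.83). Their Input was 271, 100.1 and 115 and 317, 59.1 and 149, and without Input A the ratios were -3.18 and -1.86 with Ago2 and -1.22 and -1.13 with Sfpq.

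**Figure D5:**
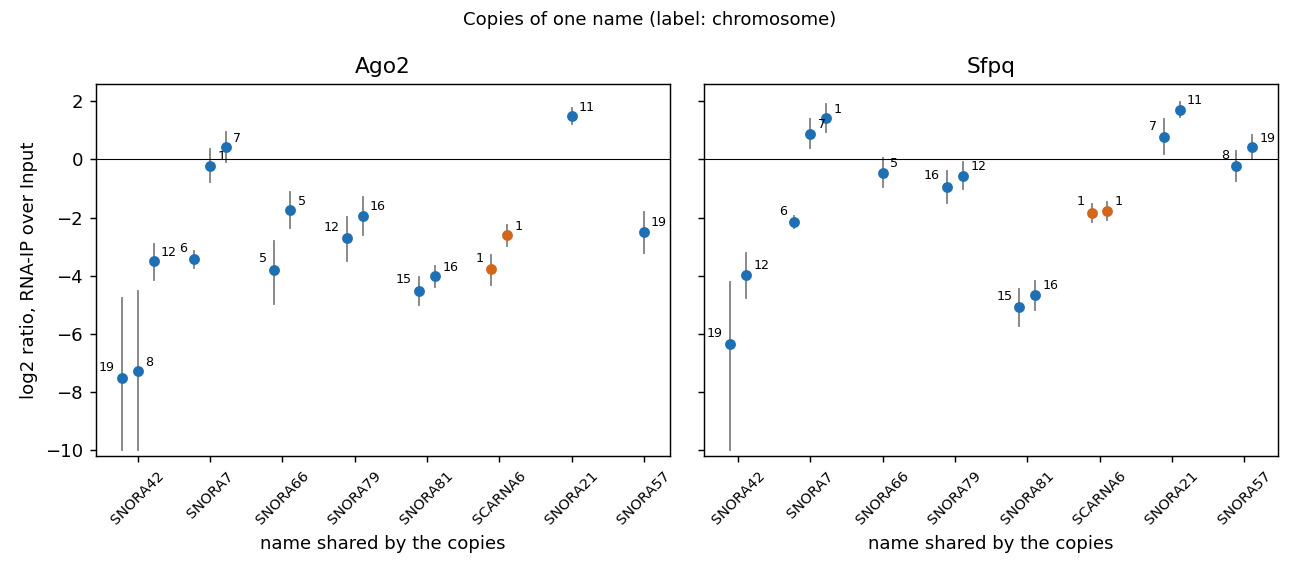
Log2 ratio of RNA-IP to Input (vertical axis) for copies of one name at a mean of at least 20, with 95% counting intervals (cut at the axis edge) and the chromosome beside each point. The SNORA7 copies range from -3.43 to 0.41 with Ago2 and from -2.15 to 1.41 with Sfpq, while the SNORA81 copies lie within 0.50 of each other.

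The remaining pairs were those of SNORA79, SNORA57 and SNORA21. SNORA79 had 6.50 against 42.6 in an intron of Gtf2a1 and 9.49 against 36.4 in an intron of Fbxo45 with Ago2 (-2.71 and -1.94), and -0.56 and -0.94 with Sfpq. SNORA57 on chromosome 19 had 7.67 against 43.0 with Ago2 (-2.49, -3.21 to -1.81) and 49.7 against 37.2 with Sfpq (0.42, 0.02 to 0.83). Its copy in St3gal2 had 1.61 against 30.8 with Ago2, under the level minimum, and 22.8 against 26.7 with Sfpq (-0.23, -0.75 to 0.30). The second SNORA21 copy, on chromosome 7, differs from the one in Rpl23 by 3 edits. It had 18.4 against 18.4 with Ago2, under the level minimum, and 26.7 against 15.6 with Sfpq (0.77, 0.17 to 1.39). The Sfpq interval of this copy lay below that of the copy in Rpl23 and did not overlap it. Its Sfpq ratio was 3.997 without Input A, and its Input had 58, 3 and 0 reads in A, B and C.

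Eif4a2, which encodes an RNA helicase of translation initiation, was the one host gene with 3 entries at the level minimum, and their ratios differed. SNORA4 had 244, 119 and 51.1 in Input A, B and C, and Ago2 RNA-IP libraries of 1.23, 1.56 and 2.94, from 7 reads (-6.18, -7.66 to -5.02). SNORA63, close by on chromosome 16 (23111301 to 23111429, against 23111617 to 23111755 for SNORA4), had 21.2 in Ago2 RNA-IP against 24.5 in the Input (-0.21, -0.77 to 0.36). The Input of SNORA63 was 42.8, 27.8 and 3.10 in A, B and C, and without Input A it was above Input in both tables, at 0.46 for Ago2 and 0.58 for Sfpq. The SNORA81 copy of this gene was at -4.01. With Sfpq the ratios were -3.90 for SNORA4, -0.02 for SNORA63 and -4.65 for SNORA81. Entries in one host gene thus ranged from -6.18 to -0.21 with Ago2. A second SNORA63 copy in the gene was under the level minimum. In Snhg12 SNORA16 was at -1.85 and SNORA44 at -1.26 with Ago2, and in Taf1d SNORA1 was at -1.51 and SNORA18 at -0.03. SNORA16 and SNORA1 were chosen after their values were seen.

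The entries were also grouped by their host gene and their length, as a description without a test. With Ago2 the median log2 ratio was -1.99 for entries in ribosomal protein genes (n = 10, from -3.79 to 1.48), -2.66 for other coding genes (n = 28), -2.19 for non-coding genes (n = 4) and -2.49 for entries without a host gene (n = 7). With Sfpq the same medians were -0.71, -1.45, -1.57 and -0.60. All 8 entries over 150 bases (both SCARNA6, both SNORA81, SCARNA16, SNORA23, SNORA53 and SNORA74) were at least 2-fold below Input in both tables, with medians of -3.89 and -2.80, against -1.86 and -0.66 for the shorter entries, 27 of 41 and 17 of 40 of which were at least 2-fold below, where 49.3% and 45.6% of all small RNAs were. SNORA53 is named here after its values were seen. The 8 long entries include a pair of near-identical copies (SNORA81), and the lengths of the fragments sequenced were not analysed here.

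Most H/ACA entries were too low for a ratio. Of 177 in the Ago2 table, 128 were under the level minimum, of which 43 were at 0 in the RNA-IP and 5 at 0 in the Input. In the Sfpq table it was 130 of 178, with 39 and 6 at 0. The highest Input of an entry at 0 in Ago2 RNA-IP was 10.7, so none of these zeros belonged to an entry of high Input. A count of 0 over 3 libraries allows up to 3 reads, which is a signal of up to 0.980 in Ago2 RNA-IP, 1.02 in Sfpq RNA-IP, 1.55 in the Input of the Ago2 table and 1.36 in that of the Sfpq table. The entries nearest the level minimum had means of 19.7 and 20.4 in the Ago2 table and 19.4 and 20.98 in the Sfpq table.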

How the data were processed

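Small RNA of 3 libraries each from Input and from RNA-IP of Ago2 and of Sfpq was sequenced on a SOLiD instrument. The library kit and PCR cycles differ between the labels and the study's methods. The authors mapped the reads and normalised them with the omiRas server, and the processing notes name cutadapt and mm10. The deposited values are a normalised signal, 1 mean over 3 libraries per group and table, with the Input scaled separately in each of the 2 tables. The authors' own log2 ratio, p-value and false discovery rate columns, and 3 further tables of their selected log2 ratios, were not used. Ratios were recomputed from the means with Python 3.11.15, pandas 2.3.3, NumPy 2.4.6 and SciPy 1.17.1, without a pseudocount. The totals of the 4 columns were 9809390 (Ago2 RNA-IP) and 7299090 (its Input), and 9957740 (Sfpq RNA-IP) and 6449020 (its Input).

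Low values fell on sums of whole reads times 3 weights per column. From these weights all 588 values above 0 and under 10 in Ago2 RNA-IP and all 687 in Sfpq RNA-IP gave 1 solution, and so did 1073 of 1076 Input values up to 100 and 332 of 359 up to 1200, solved jointly in both tables. The method was tested on simulated data. Counting intervals (95%) use the fewest reads a value allows and cover counting error only. Intervals of medians are order-statistic intervals. An exact two-sided permutation test of 3 against 3 libraries was run only for entries with RNA-IP values under 10, where both sides could be split, since the other ratios rest on 1 value per group. "Called" means at least 2-fold at a mean of at least 20.

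Members and lists were chosen with earlier results of these data known. The entries named were the 10 with the highest Input, the 8 highest and 8 lowest ratios per table, every SCARNA entry and every copy of a repeated name at the level minimum, and hosts with at least 3 such entries, others being marked. Genes and entry sequences came from GENCODE M21 (GRCm38) and miRNAs from RefSeq. Other scalings, level minima, folds, pseudocounts, copies summed, Input libraries left out and miRNA hairpin entries left out were tried as alternatives.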

Additional observations from a re-analysis of the deposited data

How the results depend on the processing

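No paired analysis was possible because the columns are means over libraries and carry no replicate numbers. The Input was recomputed without each library, and so was the RNA-IP for the entries with a value under 10, where all 18 entries with Ago2 and all 6 with Sfpq stayed at least 2-fold below Input. These alternatives were chosen after seeing the data, as was leaving out the entries that overlap a miRNA hairpin. The medians of SNORA and SCARNA stayed below 0 under every alternative run. The SNORA median with Ago2 was -1.21 after centring on all small RNAs. It ranged from -2.50 to -1.04 over the Input libraries left out, with the level minimum applied again each time. The SNORA count at least 2-fold below Input ranged over them from 16 to 32 with Ago2 and from 14 to 26 with Sfpq. It was 7 and 6 at a mean of at least 100, where 12 SNORA entries were left in each table, 103 and 86 without a level minimum, and 12 with Sfpq at 4-fold. The count at least 2-fold above Input with Ago2 (3 as reported) was 7 after centring, 1 with the miRNA signal as the total, 11 without a level minimum, 5 at 1.5-fold, 1 at 4-fold and 5 by the counting interval. With Sfpq (4 as reported) it was 7, 1, 27, 1 at 4-fold and 9 by the counting interval under the same alternatives, and 2 at a mean of at least 100. Dividing by the total signal shifted all log2 ratios down by 0.43 with Ago2 and 0.63 with Sfpq, and by the mature miRNA signal by 0.64 and 0.82. Among entries whose counting interval did not hold 0, with Sfpq this turned SNORA18 (-0.057 and -0.25), SNORA41 (-0.21 and -0.40), SNORA57 on chromosome 19 (-0.21 and -0.40) and, by the miRNA signal alone, SNORA21 on chromosome 7 (-0.047) below Input. Centring turned SNORA44 (0.33) and SNORA79 on chromosome 12 (0.0061) above it with Sfpq. Over the Input libraries left out, SNORA62 ranged from -1.38 to 0.44 with Ago2 and from -1.10 to 0.65 with Sfpq, and with Sfpq SCARNA18 ranged from -1.15 to 0.18 and SNORA44 from -0.53 to 0.27. The positive values came without Input A. Signs were checked only for 40 of the 49 entries with a ratio in the Ago2 table and 39 of the 48 in the Sfpq table. The entries and counts given here may thus be incomplete. Entries whose interval held 0 (SNORA5, SNORA7, SNORA18, SNORA63, SNORA66, SNORA57 on chromosome 8 and SCARNA4) were then counted too. Among the entries checked, the sign changed with Ago2 for 3 after centring, 2 by each total, 3 without Input A and 1 without Input C. With Sfpq it changed for 6 after centring, 4 by the total signal, 5 by the miRNA signal, 7 without Input A and 1 each without Input B and C. Without Input A SNORA63 was at 0.46 with Ago2 and 0.58 with Sfpq. The cause of these changes was not tested. Depth limits what can be said of entries under the level minimum, and 3 libraries pooled to 1 value limit every ratio.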
